A study of Mus musculus with 6 samples.

Results

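Genes of sterol and fatty acid synthesis were examined in the primary somatosensory cortex (S1, the cortical area for touch) of mice at postnatal day 7. The set holds 37 genes, chosen by name: 8 enzymes of the mevalonate pathway, 10 enzymes that turn its product into cholesterol, 5 regulators of the SREBP transcription factors, 7 genes of sterol transport and sensing, and 7 genes of fatty acid synthesis. They were read by 54 of the 55681 probes on the arrays, and all 37 were among the 32691 genes tested. Each of the 37 was well above background on all 6 arrays.

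The study compared 3 Lhx2_cKO cortices (Lhx2f/f;Nex-Cre) with 3 control cortices (Lhx2f/f, titled WT in the labels). All were from C57BL/6 mice of the same age, and both groups carried the floxed Lhx2 alleles. Nex-Cre is a Cre recombinase expressed from Neurod6 (Nex), a gene that newly formed excitatory cortical neurons switch on. Glia, microglia, vessels and interneurons of these cortices are therefore not its targets, although their RNA is in the same bulk sample. Whether each sample was a separate animal is not stated in the labels, and the p-values cover only the variation among these 6 samples, which may be technical.

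Cholesterol is made in every cell from acetyl-CoA. The mevalonate pathway yields isoprenoid diphosphates, which feed sterols on one branch and protein prenylation and dolichol on another. When membranes of the endoplasmic reticulum are poor in sterol, the escort protein SCAP carries SREBP to the Golgi, where it is cleaved, and the released fragment switches on the genes of sterol and fatty acid synthesis. INSIG proteins hold SCAP back when sterol is plentiful. Oxysterols activate the liver X receptors, which switch on the exporters ABCA1 and ABCG1. The brain makes its own cholesterol. Neurons do so during growth, and astrocytes and myelinating oligodendrocytes are the larger makers after birth.

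The targeted gene was read first. Lhx2 had 4.55, 4.68 and 4.89 on the arrays labelled cKO, against 3.62, 3.63 and 3.55 on the control arrays (log2 signal minus the array's 75th percentile on the log2 scale, as for every level below). Its log2 difference was 1.1 (SE 0.11, limma adjusted p = 0.067), higher on the arrays labelled cKO, and so it went against the label. The sources used here do not say which part of Lhx2 is floxed, and signal from a probe outside it checks nothing. Neurod6, which carries the Cre, had 2.85, 2.5 and 2.52 on the arrays labelled cKO, against 2.27, 2.13 and 2.35 on the control arrays. Every array labelled cKO lay above every control array, as in 6.98% of all genes. The log2 difference of Neurod6 was 0.37 (limma adjusted p = 0.52). Directions below are therefore those of the arrays labelled cKO. The 75th percentile of the signal ranged from 892 to 1067 intensity units, and 86.7% to 91.1% of spots were well above background. All 6 arrays were on 1 slide. Slide rows 1 and 2 each held 1 array of each group, and differences within them are given beside the pooled ones. Arrays cKO 2 and cKO 3 sat on column 2 of the slide, whereas cKO 1 and every control sat on column 1. Group and column therefore cannot be told apart within these rows, and an effect of column was not tested. Y-linked probes gave signal only on control arrays 1 and 3, so this signal and the groups overlap in part.

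None of the 37 genes passed an adjusted p of 0.05 in limma. Of all 32691 genes, 3 passed, or 0.00918% (0 without array cKO 1 or cKO 3, and 1 without cKO 2), and the median log2 difference over all genes was 0.02. At an unadjusted p under 0.05, 7 of the 37 genes were higher on the arrays labelled cKO and 1 was lower, against 3.12% and 4.38% of all genes. In 12 of the 37 (32.4%) every array labelled cKO lay above every control array, against 6.98% of all genes. In 3 of the 37 (8.11%) every array labelled cKO lay below every control array, against 6.2% of all genes. With array cKO 1, control 2 or control 3 left out, the count of lower genes was 5, against 11.0%, 9.27% and 12.2% of all genes in that order. In the other 22 the groups overlapped. Among the 12, 11 were enzymes of the mevalonate and sterol steps, and the last was Acaca, the enzyme that commits acetyl-CoA to fatty acid synthesis. The 3 were Abca1, Npc1 and Npc2, a share near that of all genes. By sign alone, 26 were higher and 11 lower, with a median log2 difference of 0.12. Confidence intervals of 95% reached a median of 0.24 to either side of a member's difference, so shifts below that size were mostly not detectable with 3 arrays a group. These intervals are not adjusted for the number of genes tested. Larger shifts could also miss the adjusted threshold, as Fdps did at 0.51 (limma adjusted p = 0.17).

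**Figure D1:**
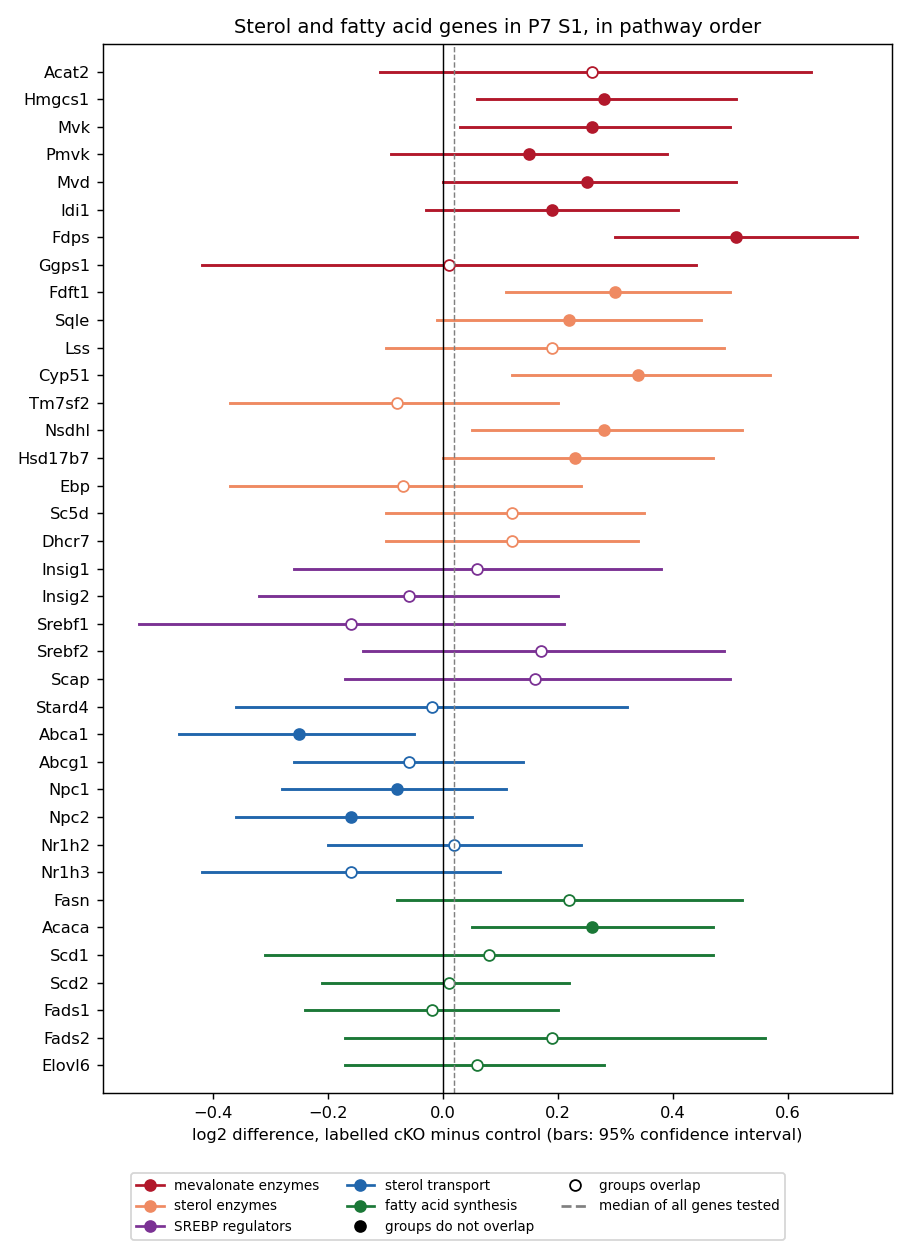
Log2 difference of each of the 37 genes, arrays labelled cKO minus control, with its 95% confidence interval, in pathway order from the top. Filled points mark the 12 higher and 3 lower genes whose groups do not overlap, and the dashed line is the median of all genes tested, 0.02.

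The 18 enzymes of the mevalonate and sterol groups, which include Ggps1 on the prenylation branch, were mostly higher by sign on the arrays labelled cKO, by small amounts. By sign, 16 of 18 were higher, with a median log2 difference of 0.23, or 1.17-fold. In 11 of 18 (61.1%) they were higher without overlap, against 6.98% of all genes. None passed the adjusted threshold. These counts describe the members, which were chosen with earlier results of these data known. In bulk RNA, fewer cells of a type and less RNA per cell cannot be told apart.

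All 8 mevalonate enzymes had a positive log2 difference, with a median of 0.26. Relative to the control means, the per-array medians were 0.23, 0.33 and 0.15 on the arrays labelled cKO and 0.00, 0.04 and -0.03 on the control arrays. Within slide rows 1 and 2 the median was 0.33 and 0.11, and against control array 2 alone, which like the arrays labelled cKO gave no Y-linked signal, it was 0.24.

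Fdps makes farnesyl diphosphate, the branch point between sterols and prenylated proteins. It had 5.69, 5.62 and 5.72 on the arrays labelled cKO, against 5.20, 5.21 and 5.10 on the control arrays. The groups lay well apart and each was tight. Its log2 difference was 0.51 (SE 0.09), a fold of 1.42 with a 95% interval of 1.23 to 1.64, and the limma adjusted p was 0.17. Within slide rows 1 and 2 it was 0.42 and 0.51. With an intensity trend and robust variances the adjusted p was 0.031, and over the other alternatives it reached 1.0. The files place the only Fdps probe on chromosome 10, from 93242421 to 93242480 (mm9), whereas RefSeq places the Fdps gene on chromosome 3. Whether its signal comes from a copy of the gene was not tested.

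Hmgcs1, the cytosolic synthase that makes HMG-CoA, had 6.81, 6.93 and 6.72 on the arrays labelled cKO, against 6.56, 6.55 and 6.50 on the control arrays. Each array labelled cKO lay above all 3 controls, with a log2 difference of 0.28 (SE 0.09, limma adjusted p = 0.50) and within-row values of 0.37 and 0.17. Its other probe was far dimmer, with a mean level of -2.95 against 6.68 for the probe used, and differed by 0.26. The files give no chromosome for either probe.

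Mvk, the mevalonate kinase, had 4.34, 4.34 and 4.11 on the arrays labelled cKO, against 4.02, 4.0 and 3.99 on the control arrays. The controls were almost level, and the lowest of the arrays labelled cKO, replicate 3, was 0.09 above the highest of them. The log2 difference was 0.26 (SE 0.10, limma adjusted p = 0.59), and that of the other probe was 0.34.

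Mvd, the decarboxylase that yields isopentenyl diphosphate, had 1.97, 2.21 and 1.91 on the arrays labelled cKO, against 1.73, 1.82 and 1.78 on the control arrays. Replicate 2 was the highest of the arrays labelled cKO for Mvd, as for Hmgcs1. The log2 difference was 0.25 (limma adjusted p = 0.67), with 0.48 and 0.09 in rows 1 and 2.

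Of the remaining mevalonate enzymes, Pmvk, the second kinase of the pathway, and Idi1, the isomerase of isopentenyl diphosphate, differed by 0.15 and 0.19, both without overlap. The gap between the groups was only 0.01 for Pmvk and 0.06 for Idi1, and the other probe of Pmvk differed by 0.05. Acat2, the thiolase that starts the pathway, differed by 0.26, but its control arrays held 0.33, 0.25 and 0.79, and the highest of these exceeded every array labelled cKO. Ggps1 makes geranylgeranyl diphosphate, on the prenylation branch and not on the way to sterols. It differed by 0.01 with a 95% interval of -0.42 to 0.44, and its probes were of opposite sign. The files place the probe with the negative difference, -0.05, on chromosome 14, whereas RefSeq places Ggps1 on chromosome 13.

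The 10 enzymes after farnesyl diphosphate had a median log2 difference of 0.21, with 8 of 10 positive and 5 of 10 without overlap. Their per-array medians were 0.23, 0.21 and 0.16 on the arrays labelled cKO and 0.01, 0.01 and -0.02 on the control arrays. Within rows 1 and 2 the median was 0.21 and 0.12, and against control array 2 it was 0.20.

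Cyp51, the lanosterol demethylase, had 0.46, 0.62 and 0.48 on the arrays labelled cKO, against 0.15, 0.12 and 0.27 on the control arrays. Its log2 difference was 0.34 (SE 0.10, limma adjusted p = 0.38), 1.27-fold, and the within-row values were 0.48 and 0.36. The groups were separated on every array.

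Fdft1, squalene synthase, commits farnesyl diphosphate to sterols. It had 3.19, 3.17 and 3.16 on the arrays labelled cKO, against 2.91, 2.81 and 2.89 on the control arrays, a log2 difference of 0.30 (SE 0.08, limma adjusted p = 0.38). The arrays labelled cKO were almost level, and all lay above the controls. The files place this probe on chromosome 14 from 19364899 to 19364958 (mm9). Its other, dimmer probe lies on the same chromosome from 63764562 to 63764621 and differed by 0.06, so the placements are 44400 kb apart, and whether the brighter signal comes from a copy was not tested.

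Nsdhl, a dehydrogenase that helps remove methyl groups from the sterol ring, had 1.02, 1.06 and 0.94 on the arrays labelled cKO, against 0.79, 0.80 and 0.58 on the control arrays (log2 difference 0.28, limma adjusted p = 0.55). Its second probe differed by 0.04. Hsd17b7, the reductase of the same complex, had 0.21, 0.08 and -0.05 on the arrays labelled cKO, against -0.15, -0.12 and -0.20 on the control arrays. Its difference was 0.23 (limma adjusted p = 0.67), and its second probe gave 0.24. Both genes were separated between the groups, Hsd17b7 by the narrower margin.

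Sqle, squalene epoxidase, differed by 0.22 without overlap, and Lss, which closes the sterol ring, by 0.19 with overlap. Among the late steps, Sc5d, the sterol desaturase, and Dhcr7, which makes cholesterol from its last precursor, each differed by 0.12. Tm7sf2, a sterol reductase whose step a lamin B receptor also performs, and Ebp, the sterol isomerase, had negative differences of -0.08 and -0.07, and all 4 overlapped between the groups.

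**Figure D2:**
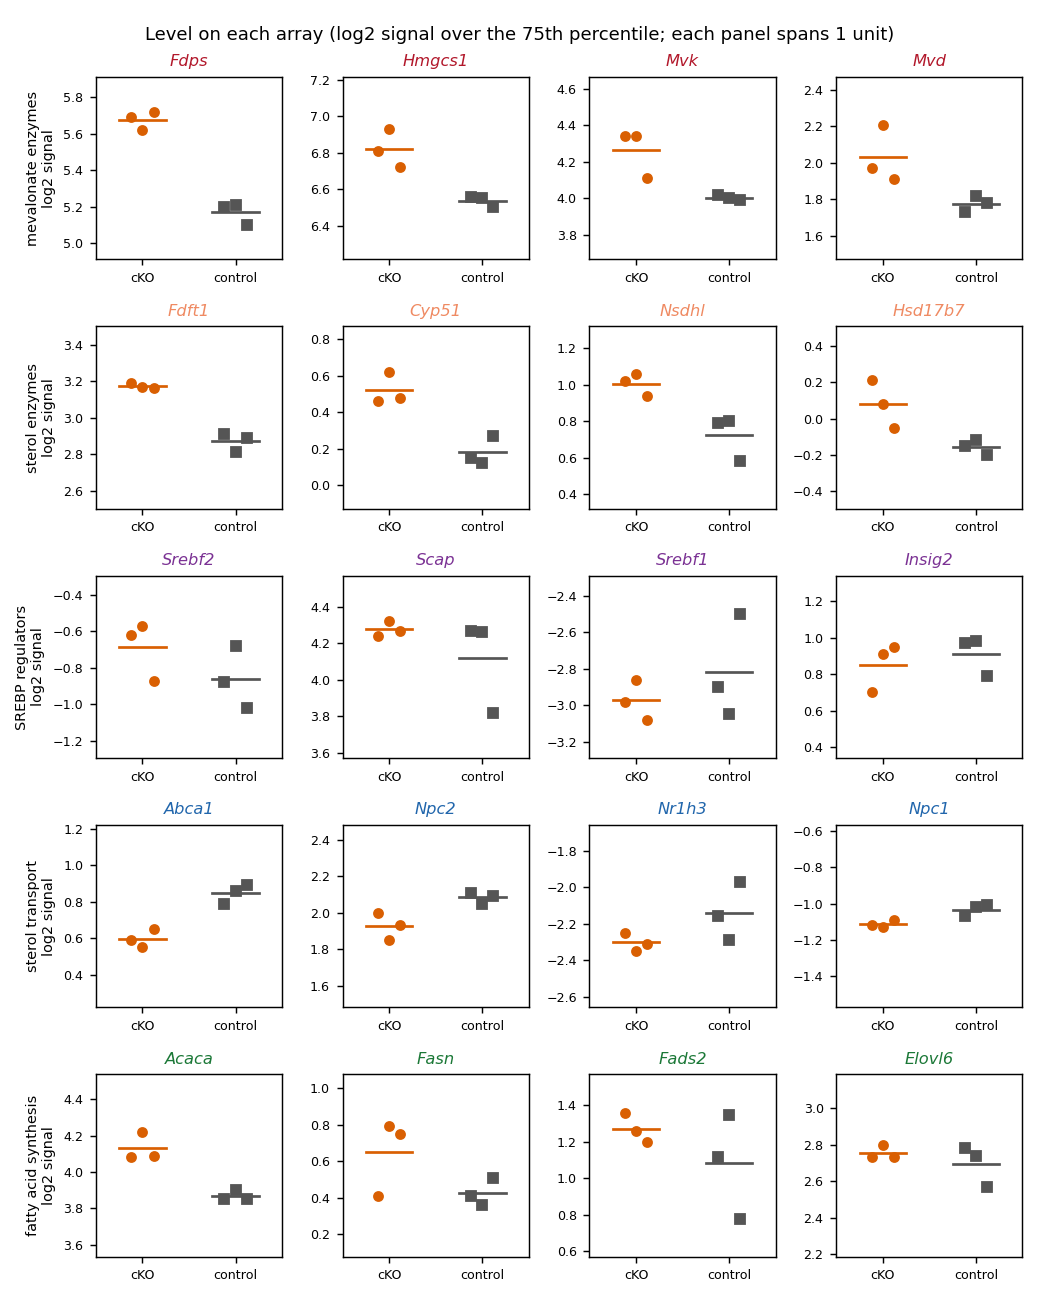
Level on each array of the 4 genes with the smallest unadjusted p in each of the 5 gene groups, as log2 signal above the array's 75th percentile. Circles are the arrays labelled cKO, squares the control arrays and lines the group means; every panel spans 1 log2 unit. The mevalonate and sterol enzyme panels are separated between groups, and those of the SREBP regulators overlap.

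The genes that control these enzymes did not separate. Of the 5 SREBP regulators, 3 had positive and 2 negative differences, with a median of 0.06, and all 5 overlapped between groups. The median was -0.02 without array cKO 2 and -0.03 without control 2. Srebf2 encodes the SREBP that mainly drives sterol genes. It had -0.62, -0.57 and -0.87 on the arrays labelled cKO, against -0.88, -0.68 and -1.02 on the control arrays, a difference of 0.17 with a 95% interval of -0.14 to 0.49. Its second probe gave -0.02. Srebf1, whose main product drives fatty acid genes, had -2.98, -2.86 and -3.08 on the arrays labelled cKO, against -2.90, -3.05 and -2.50 on the control arrays (difference -0.16, interval -0.53 to 0.21).

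Scap had 4.24, 4.32 and 4.27 on the arrays labelled cKO, against 4.27, 4.26 and 3.82 on the control arrays. Its difference of 0.16 (interval -0.17 to 0.50) came with 1 control array, replicate 3, below all the others. Insig1, itself a target of SREBP, differed by 0.06. Insig2 had 0.70, 0.91 and 0.95 on the arrays labelled cKO, against 0.97, 0.98 and 0.79 on the control arrays, and differed by -0.06. Messenger levels of these genes say nothing of SREBP cleavage, which the arrays do not measure.

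Promoter sequence was read for the members from RefSeq (GRCm38.p6), as 250 bases before to 50 after the annotated start. The table held 28 of the 37 genes; Fdps, Fdft1, Sqle, Stard4, Abcg1, Npc1, Scd1, Scd2 and Fads1 were not in it. SREBP binds poorly alone, and sterol promoters are known for pairing its element with a CCAAT box, the site of the trimeric factor NF-Y. The motifs searched on both strands were CCAAT, which reads ATTGG on the opposite strand, and TCACNCCAC, a core of the sterol regulatory element. Neither motif contains the other. The promoters shown are those of 4 enzymes with non-overlapping groups and of Abca1, a gene lower without overlap. Each line gives the 250 bases before the start, 5′ to 3′ on the gene's strand, with the motif matches in capitals. Hmgcs1 lies at chr13:119690101-119690350 on the plus strand, Mvk at chr5:114444019-114444268 on the plus strand, Cyp51 at chr5:4104698-4104947 on the minus strand, Nsdhl at chrX:72918271-72918520 on the plus strand and Abca1 at chr4:53159896-53160145 on the minus strand.
Hmgcs1: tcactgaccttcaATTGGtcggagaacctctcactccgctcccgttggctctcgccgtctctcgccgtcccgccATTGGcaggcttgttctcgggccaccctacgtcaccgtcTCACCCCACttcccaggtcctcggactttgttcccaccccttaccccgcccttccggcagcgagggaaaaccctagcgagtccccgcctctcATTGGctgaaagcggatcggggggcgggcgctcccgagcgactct
Mvk: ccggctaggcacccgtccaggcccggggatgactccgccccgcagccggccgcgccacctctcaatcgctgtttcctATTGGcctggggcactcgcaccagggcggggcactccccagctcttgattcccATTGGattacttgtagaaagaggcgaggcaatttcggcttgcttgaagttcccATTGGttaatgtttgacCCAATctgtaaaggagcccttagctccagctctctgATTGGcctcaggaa
Cyp51: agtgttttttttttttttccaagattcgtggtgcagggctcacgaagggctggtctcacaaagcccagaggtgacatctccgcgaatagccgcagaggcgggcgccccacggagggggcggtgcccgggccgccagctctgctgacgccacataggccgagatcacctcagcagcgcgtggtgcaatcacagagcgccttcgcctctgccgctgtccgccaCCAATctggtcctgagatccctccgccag
Nsdhl: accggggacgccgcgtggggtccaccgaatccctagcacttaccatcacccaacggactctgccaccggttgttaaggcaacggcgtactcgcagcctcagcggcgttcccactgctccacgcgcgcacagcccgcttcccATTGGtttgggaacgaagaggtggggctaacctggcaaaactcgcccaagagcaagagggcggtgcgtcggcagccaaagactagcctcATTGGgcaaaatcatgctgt
Abca1: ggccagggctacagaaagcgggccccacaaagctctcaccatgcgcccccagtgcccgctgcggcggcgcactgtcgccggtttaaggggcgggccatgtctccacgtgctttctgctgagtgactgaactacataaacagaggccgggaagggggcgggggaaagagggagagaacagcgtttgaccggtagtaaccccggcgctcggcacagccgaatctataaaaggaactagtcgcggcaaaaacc

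A CCAAT box on either strand stood in 14 of the 15 enzyme genes with a promoter (93.3%), the exception being Acat2, against 11096 of 27025 genes overall (41.1%). It stood in 4 of 5 SREBP regulators, 1 of 4 transport genes (Npc2) and 1 of 4 fatty acid genes (Fasn). Over all 28 members it was 20 (71.4%). A gene was counted, here and over all genes, if any of its annotated starts held a box. Dhcr7 held boxes only at the last of its annotated starts. The core TCACNCCAC stood in Hmgcs1 alone, against 1.44% of all genes, with its first base at -137 from the start and CCAAT boxes at -237, -176, -45 and, after the start, 10. Mvk held inverted boxes at -173, -120, -67 and -14, each 53 bases from the next, and a further box at -50 on the gene strand. Cyp51 had 1 box, at -29, and Nsdhl had boxes at -109 and -20 and, after the start, at 8 and 34. Abca1 had neither motif in these letters. Acaca, the fatty acid gene without overlap, also had none. Npc2, lower without overlap, held 2 boxes. The enzymes Ggps1, Lss, Tm7sf2, Ebp, Sc5d and Dhcr7, whose groups overlapped, held boxes too. The motif and the separation of groups therefore did not go together in every gene. A match is a description of the letters, not a site of binding.

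**Figure D3:**
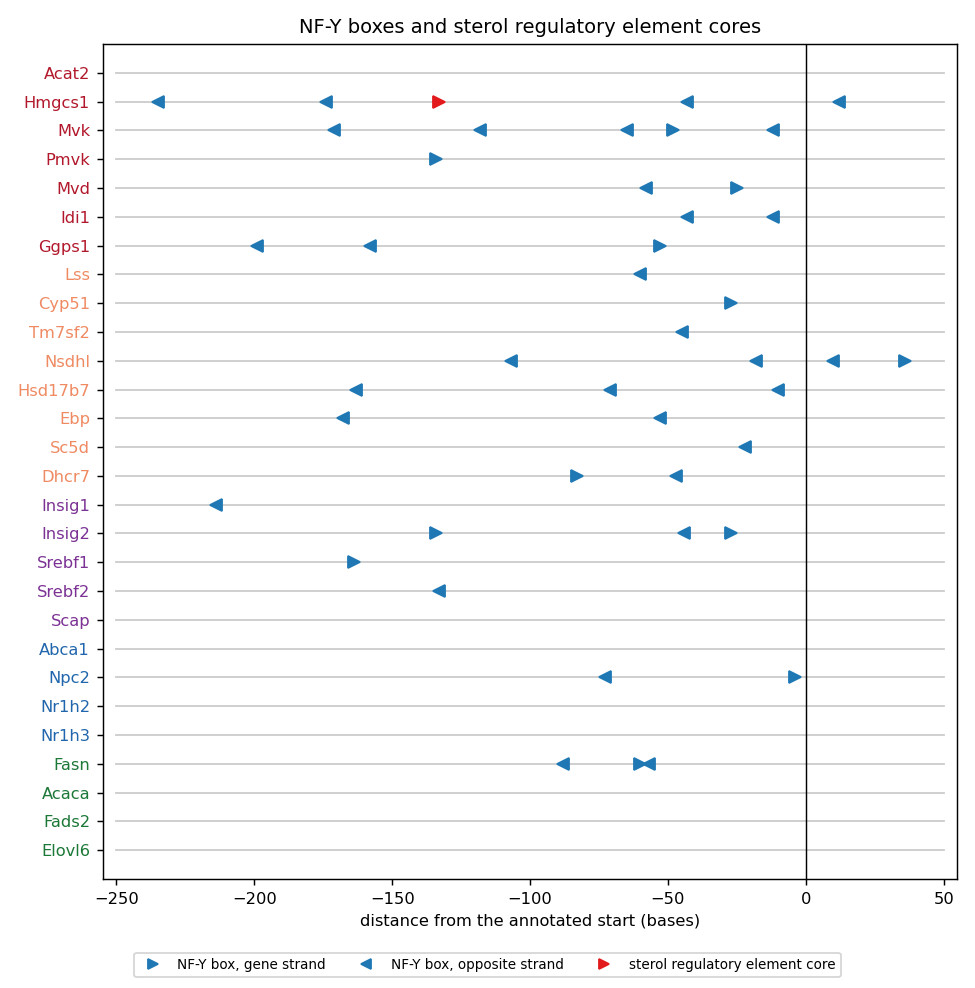
CCAAT boxes (NF-Y boxes, triangles pointing along the strand) and the sterol regulatory element core in the promoters of the 28 members found in RefSeq. Positions are distances from the annotated start in bases, and for each gene only the start with the most boxes is drawn. Gene names are coloured by gene group. Boxes are seen in 14 of 15 enzymes, 4 of 5 SREBP regulators, 1 of 4 transport genes and 1 of 4 fatty acid genes.

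Of the genes of sterol transport and sensing, 6 of 7 were by sign lower on the arrays labelled cKO, with a median log2 difference of -0.08. In 3 of 7 (42.9%) the groups did not overlap, against 6.2% of all genes lower without overlap. Over all 37 members the same 3 genes were 8.11%, near the share of all genes. Their per-array medians were -0.09, -0.10 and -0.15 on the arrays labelled cKO and 0.03, 0.01 and 0.01 on the control arrays. Within rows 1 and 2 the median was -0.11 and -0.10, and against control array 2 it was -0.09.

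Abca1, the cell's exporter of cholesterol to apolipoproteins, had 0.59, 0.55 and 0.65 on the arrays labelled cKO, against 0.79, 0.86 and 0.89 on the control arrays. Every array labelled cKO was lower. The log2 difference was -0.25 (SE 0.09, limma adjusted p = 0.53), or 1.19-fold lower, with -0.24 and -0.21 in rows 1 and 2. Npc2, which lifts cholesterol out of lysosomal vesicles, had 2.0, 1.85 and 1.93 on the arrays labelled cKO, against 2.11, 2.05 and 2.09 on the control arrays (difference -0.16, limma adjusted p = 0.82). Its membrane partner Npc1 had -1.12, -1.13 and -1.09 on the arrays labelled cKO, against -1.07, -1.02 and -1.01 on the control arrays, a difference of -0.08 with a gap of only 0.02 between the groups.

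Nr1h3, liver X receptor alpha, had -2.25, -2.35 and -2.31 on the arrays labelled cKO, against -2.16, -2.29 and -1.97 on the control arrays, which overlapped (difference -0.16). The other liver X receptor gene, Nr1h2, differed by 0.02, the other exporter Abcg1 by -0.06, and the soluble carrier Stard4, which SREBP drives, by -0.02 with a second probe at 0.19. None of these 3 separated the groups.

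Fatty acid genes differed by small amounts. By sign, 6 of 7 were higher on the arrays labelled cKO, but the median was 0.08. Only Acaca (14.3% of the 7) was higher without overlap, against 6.98% of all genes. Within rows 1 and 2 the median was 0.09 and -0.07, and against control array 2 it was -0.04, while without control array 3 it was -0.01. The direction of this group was therefore not the same on every comparison of arrays.

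Acaca, acetyl-CoA carboxylase, had 4.08, 4.22 and 4.09 on the arrays labelled cKO, against 3.85, 3.90 and 3.85 on the control arrays. The log2 difference was 0.26 (SE 0.09, limma adjusted p = 0.51), with 0.37 and 0.19 in rows 1 and 2. Its probes did not give one value. The second probe that the files place on chromosome 11 gave 0.02, and the 2 placed on chromosome 12 gave 0.51 and 0.29. RefSeq places Acaca on chromosome 11, and whether those 2 probes read another place in the genome was not tested.

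Fasn, fatty acid synthase, had 0.41, 0.79 and 0.75 on the arrays labelled cKO, against 0.41, 0.36 and 0.51 on the control arrays. Replicate 1 of the arrays labelled cKO sat among the controls, and the difference was 0.22 with a 95% interval of -0.08 to 0.52. Fads2, the first desaturase of polyunsaturated fatty acid synthesis, had 1.36, 1.26 and 1.20 on the arrays labelled cKO, against 1.12, 1.35 and 0.78 on the control arrays (difference 0.19). Elovl6, an elongase of saturated chains, had 2.73, 2.80 and 2.73 on the arrays labelled cKO, against 2.78, 2.74 and 2.57 on the control arrays (difference 0.06). The stearoyl-CoA desaturases Scd1 and Scd2 differed by 0.08 and 0.01 and the desaturase Fads1 by -0.02, all with overlap.

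Other genes of the pathway were read from 6 lists, 103 genes in all, and in limma 0 passed the adjusted threshold, with 3 higher and 8 lower at an unadjusted p under 0.05, where 3.12% and 4.38% of all genes stood. Of 8 other sterol genes tested, 6 were higher by sign and 2 lower, with a median of 0.11, and 2 were higher without overlap. The isoprenoid branch that does not lead to sterols, prenylation and dolichol synthesis, had 6 higher and 8 lower of 14, with a median of -0.01. Within it Rabggta, a subunit of the transferase that prenylates Rab proteins, differed by 0.19, Fntb, a subunit of farnesyltransferase, by 0.16, and Zmpste24, a protease that trims prenylated lamin A, by -0.16. Of 16 genes of SREBP processing and turnover, 10 were higher and 6 lower, with a median of 0.05. The erlins Erlin2 and Erlin1, which help hold SREBP in the endoplasmic reticulum, differed by 0.20 and 0.19, and the ubiquitin ligase Rnf145 by 0.18.

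Sterol uptake, esterification and oxidation ran the other way, with 19 of 24 genes lower by sign and a median of -0.07. Lcat, the enzyme that esterifies cholesterol on lipoproteins and is made in brain by astrocytes, had -2.26, -2.48 and -2.43 on the arrays labelled cKO, against -1.67, -1.70 and -1.63 on the control arrays. The groups were far apart. Its log2 difference was -0.72, or 1.65-fold lower, with a limma adjusted p of 0.095. Soat1, the esterifying enzyme inside cells, differed by -0.47 and Pltp, which transfers phospholipid between lipoproteins, by -0.37. Among 30 other fatty acid genes, 21 were higher by sign and 9 lower, with a median of 0.09. Me1, a source of NADPH for lipid synthesis, differed by 0.58, while the elongase Elovl7 and the glial acyl-CoA synthetase Acsbg1 differed by -0.58 and -0.50. Of 11 genes of myelin lipid synthesis, 6 were lower by sign, with a median of -0.06. The galactolipid enzymes Gal3st1, Fa2h and Ugt8a differed by -0.60, -1.02 and -0.76, with limma adjusted p-values of 0.24, 0.41 and 0.67.

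Markers of other cell types also differed between the groups, with 0 of them past the adjusted threshold in limma. At an unadjusted p under 0.05 in limma, 4.38% of all genes were lower on the arrays labelled cKO and 3.12% higher. Astrocyte markers were lower by sign in 17 of 18 (15 at an unadjusted p under 0.05), with a median of -0.46, and their summed linear level was 163 to 188 on the arrays labelled cKO and 222 to 253 on the control arrays. Microglial markers were lower in 14 of 14, 12 of them at that unadjusted p (median -0.58, sums of 69.9 to 76.1 and 89.8 to 92.1), with per-array medians that spread from -0.97 to -0.32 on the arrays labelled cKO. Oligodendrocyte markers were lower in 16 of 18, 9 at that p (median -0.33, sums of 142 to 165 and 173 to 213), while Opalin, a marker of mature oligodendrocytes, was well above background on 0 arrays. Immature neuron markers were higher in 10 of 13, 6 at that p (median 0.26, sums of 1260 to 1360 and 1020 to 1180).

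Markers of cortical excitatory neurons were split, with 6 higher and 6 lower (median 0.08, sums of 98.5 to 105 on the arrays labelled cKO and 88.3 to 101 on the control arrays). Interneuron markers were lower in 9 of 10 (median -0.18, sums of 61.3 to 76.1 and 77.5 to 81.6), and endothelial and mural markers in 8 of 12 (median -0.09, sums of 25.8 to 30.5 and 26.4 to 34.6). Markers of meninges, tissue that could come with the dissection, were lower in 8 of 9 (median -0.36, sums of 19.6 to 46.8 and 32 to 46.1), and those of blood were higher in 4 of 4 (median 0.40, sums of 54.3 to 167 and 66.5 to 121). The part of these markers in the differences of the sterol genes was not tested.

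**Figure D4:**
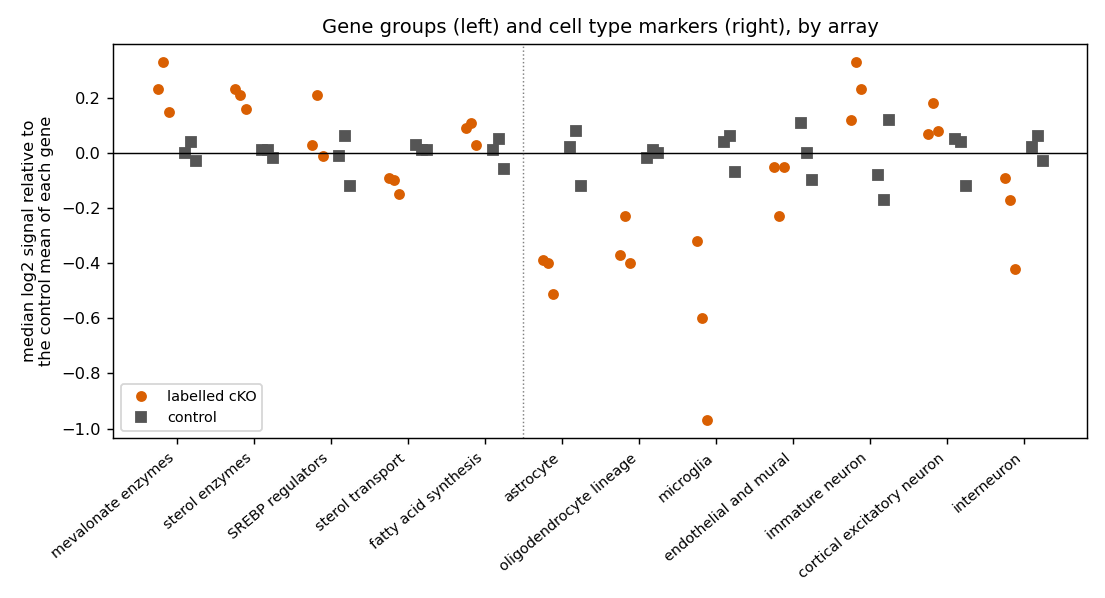
Median log2 signal of each gene group (left of the dotted line) and of 7 cell type marker lists (right) on each array, relative to the control mean of each gene. Circles are the arrays labelled cKO and squares the control arrays. The mevalonate and sterol enzyme medians lie between 0.15 and 0.33 on the arrays labelled cKO, while the astrocyte medians lie between -0.51 and -0.39.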

How the data were processed

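Total RNA of 6 dissected cortices was amplified, labelled with Cy3 and hybridised to single-colour Agilent arrays, 1 per sample, per the labels' protocols. The deposited scanner files hold spot intensity values from Feature Extraction 10.5.1.1, background-subtracted and spatially detrended but not normalized between arrays, per the file headers. The authors' deposited matrix holds log2 values; how they were made was not given in the sources used here. The matrix lay within 0.00235 of quantile-normalized log2 signals minus each probe's median for 95% of values, and column medians were -0.0064 to 0.00645; it served as an alternative.

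From the scanner files, log2 processed signal minus the array's 75th percentile was computed without control and outlier-flagged spots (112 to 198 an array). Spots of a probe were averaged. Probes well above background on at least 3 of 6 arrays were kept (50016 probes), and each gene took its brightest probe. Groups were compared with limma 3.58.1 in R 4.3.3 (two-sided moderated test of lmFit and eBayes), p-values were adjusted by Benjamini-Hochberg over 32691 genes and the threshold was 0.05, after tests on simulated data. The number of arrays limits the precision. Names were updated through RefSeq (GRCm38.p6): 28331 probes matched by accession, 428 by another accession, 2034 by symbol and 162 by synonym, and 24726 kept the file's name. Coordinates of probes are on mm9.

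The members and lists were chosen with earlier results of these data known. All 37 members are accounted for; up to 4 per gene group and 3 per other list, by smallest unadjusted p, are named with values, except in the list of other sterol genes, which is given as counts. Same-numbered samples deviated from their group means with correlations of -0.20, 0.08 and 0.17, so the numbers do not pair them. Alternatives were quantile normalization, median centring, normexp with an offset of 50, other filters, the mean of probes, an intensity trend with robust variances, a replicate block, terms for slide row and Y-linked signal, the authors' matrix, and each array left out; a percentile over spots was added after seeing the data.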

Additional observations from a re-analysis of the deposited data

How the results depend on the processing

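With 3 genes called in the reported comparison, the count was 12 under quantile normalization and with the authors' matrix, 24 under median centring, 89 after normexp, 13 with a filter on all 6 arrays, 110 with an intensity trend and robust variances, 2 without both arrays with Y-linked signal, and 0 with no filter, with a replicate block, with a term for slide row and with a term for Y-linked signal. It was 0 to 4 with each array left out. The cause was not tested. Of the 37 members, 1 (Fdps) was called, with the intensity trend and robust variances, and 0 under the other 13 alternatives and the 6 left-out arrays. Members higher without overlap numbered 8 under median centring (4.44% of all genes), 16 without both arrays with Y-linked signal (23.4% of all genes) and between these under the others; with an array left out they numbered 12 to 15 (9.56% to 15.3% of all genes). Members lower without overlap numbered 2 under median centring (5.23% of all genes), 5 without both arrays with Y-linked signal (21.3%), 3 under the others, and 3 to 5 with an array left out (9.27% to 12.2%); fewer arrays overlap less often by construction. The median of the sterol enzymes was 0.17 with the mean of a gene's probes and 0.17 to 0.21 with an array left out; that of the mevalonate enzymes was 0.19 to 0.27, of the SREBP regulators -0.03 to 0.12 and of the transport genes -0.10 to -0.07. The fatty acid median was -0.04 with the Y-linked term and without those arrays, and -0.01 to 0.17 with an array left out. The replicate numbers did not pair the samples, and 0 members were called with the replicate block; counts without overlap come from the array values, which a block or another term leaves as they are.

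Of 740 member values under 20 settings, 44 in 14 members changed sign, and none of these differed by over 0.19 in the reported comparison. Quantile normalization gave Ggps1 -0.0019, Nr1h2 -0.03 and Scd2 -0.01, the authors' matrix gave Ggps1 -0.0018, Nr1h2 -0.03 and Scd2 -0.01, and median centring gave Scd2 -0.0011. The mean of probes gave Ggps1 -0.01 and Stard4 0.08. The Y-linked term, and likewise leaving out both arrays with that signal, gave Ggps1 -0.03, Srebf1 0.08, Srebf2 -0.01, Abcg1 0.01, Nr1h2 -0.03, Scd1 -0.05, Scd2 -0.04 and Fads2 -0.07. With an array left out, ranges crossing 0 were Ggps1 -0.14 to 0.14, Ebp -0.15 to 0.03, Insig1 -0.04 to 0.16, Insig2 -0.12 to 0.02, Stard4 -0.14 to 0.08, Nr1h2 -0.03 to 0.06, Scd1 -0.05 to 0.22, Scd2 -0.04 to 0.04, Fads1 -0.08 to 0.02 and Elovl6 -0.01 to 0.10. Each of the 12 members higher and 3 lower without overlap kept its sign under every alternative and left-out array. Groups that do not overlap keep their sign whichever array is left out, so that part was fixed by how these members were picked. The replicate block also leaves each difference as it is.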
